A study of Schizosaccharomyces pombe with 28 samples.

Results

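The genes described here lie on cosmid clones from the ends of the fission yeast chromosomes. They were chosen by systematic identifier alone: every gene of the clones SPAC212, SPAC977, SPAC750, SPAC186, SPAC869, SPAC1F8, SPAC1039, SPBC1348, SPBPB2B2, SPBPB21E7, SPBPB10D8, SPBCPT2R1 and SPCC569, leaving out str3 and the wtf, pfl and ght genes. The array table named 85 of them, out of 4929 gene identifiers in all. RefSeq (assembly ASM294v3) lists 137 genes on these clones after the same exclusions, and the other 52 were not analysed here. Of the 85, 81 are protein coding and 4 are pseudogenes, and 31 carry a gene symbol. By chromosome end, 21 lie at the left and 32 at the right of chromosome I, 14 at the left and 11 at the right of chromosome II, and 7 at the right of chromosome III. The clones SPBPB21E7 and SPBCPT2R1 had 0 measured genes. The probe identifier of plb4 is built on clone SPBC1348 of chromosome II, whereas the platform annotation places the gene on chromosome I, and the place of plb4 is uncertain to that extent.

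The last stretches of fission yeast chromosomes next to the telomeres are packed into heterochromatin, in which histone H3 is methylated by Clr4 and bound by Swi6, and genes there are largely silenced. Inward of the heterochromatin lie families of related genes, many for nutrient transporters, spore proteins and enzymes of sugar metabolism, and many are induced by nitrogen starvation or in meiosis. Several such genes exist in near-identical copies at different ends, so a spotted probe can bind RNA of more than its own gene.

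The 28 arrays form a single group. Each was a two-channel spotted array on which both channels held cDNA of the wild-type strain LJY1014 (h- leu1-32), grown in the rich medium YES and collected in early log phase from independent cultures. No gene was deleted, no agent was added and no other condition was compared. Whether the channels of each array came from different cultures is not given in the sources used here. Where they did, a ratio holds the difference in RNA level between cultures meant to be alike, together with the error of the array. Where they did not, it holds no difference between cultures. The values are log2 ratios of the channels, and each array was centred on the median of its probes. Which channel is the numerator, and whether dyes were swapped, is not given in the sources used here, so a sign is that of the deposited value and names no culture. Ratios of RNA from whole cultures cannot tell a different share of cells from a different amount of RNA per cell, and they give no level, so they cannot show whether a gene was expressed.

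The arrays were not alike. Clustered on their correlation over all genes, they fell into 3 sets: hybridisations 1 to 8, 19 and 20 (the first set, n = 10), 9 to 18 (the second, n = 10) and 21 to 28 (the third, n = 8). The median correlation between arrays was 0.657 within sets and 0.0391 across sets. The labels do not name these sets, which may be batches, and since they were found from the same arrays no test was made between them. Values are given by set below. The limma test of each gene's mean against 0 treated the set as a random block and adjusted p over all 4929 identifiers. The mean fitted with this block can differ from the mean over arrays. Means given with an SD are over arrays, and a limma p beside them belongs to the fitted mean.

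Most chromosome-end genes varied about as much as the rest of the genome. Their SD across the 28 arrays had a median of 0.177 log2 units (upper quartile 0.221, range 0.0813 to 0.664), beside 0.165 (upper quartile 0.220) over all identifiers. With the set means removed, the medians were 0.141 and 0.124. An SD of at least 0.3 was found for 9 of the 85 (10.6%), beside 8.12% of all identifiers. These 9 were hry1, SPAC1039.02, SPAC1039.06, SPAC1039.01, ftm5, SPAC977.14C, SPAC750.01, pdc101 and SPBPB10D8.03.

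Each gene was measured by 2 probes, which allowed variation between arrays to be set against disagreement between probes. The F ratio of these mean squares passed an adjusted p of 0.05 for 35 of the 85 genes (41.2%), beside 53.2% of all identifiers. With the set means removed it passed for 17 (20.0%), beside 23.4%. The correlation between the probes of a gene had a median of 0.329 over the chromosome-end genes and 0.419 over all identifiers, and it was below 0 for 14 of the 85 (16.5%), beside 12.9% of all identifiers. The sets held a median of 32.7% of the variance of a chromosome-end gene, beside 43.9% over all identifiers. None of these shares was tested against the rest of the genome.

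**Figure D1:**
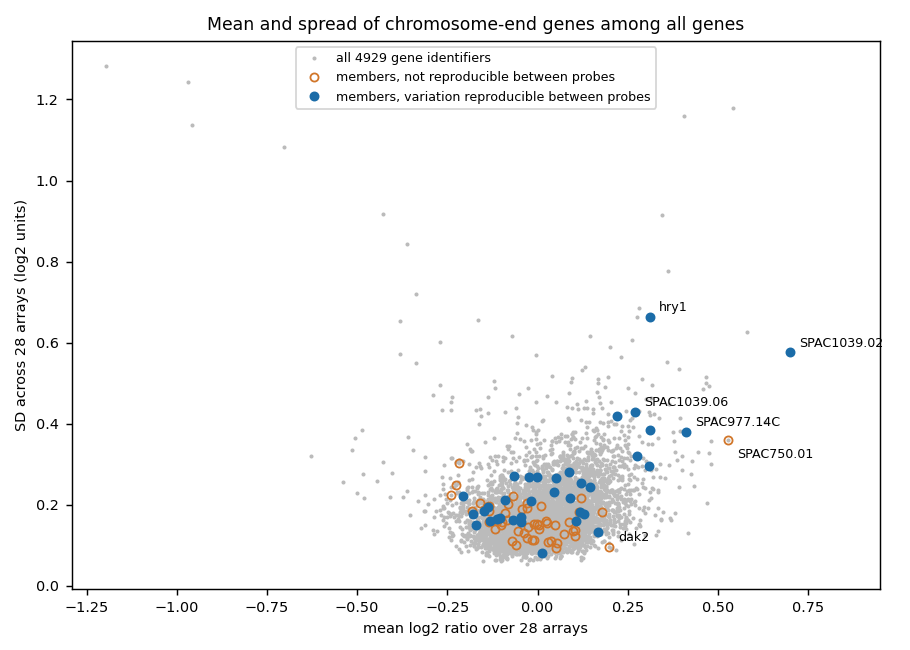
Mean log2 ratio (horizontal axis) against the SD across 28 arrays (vertical axis, log2 units) for all 4929 identifiers (grey) and the 85 chromosome-end genes, filled where the probes varied together. Most of the 85 lie in the body of the grey cloud. SPAC1039.02, at a mean of 0.70, and hry1, at an SD of 0.66, stand at its right and upper edges.

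The means lay on both sides of 0, 39 above and 46 below, beside 2710 above and 2219 below over all identifiers, with a median of -0.01 beside 0.01 over all identifiers. Of the 85 genes, 2 had a mean above 0 at an adjusted p of 0.05, where the background was 0.69% of identifiers: SPAC1039.02 (adjusted p = 0.00719) and SPAC750.01 (adjusted p = 0.0168). The number with a mean below 0 was 0, where the background was 0.812%. At an unadjusted p of 0.05 in the same limma fit, 7 lay above 0 (background 7.83%) and 5 below (background 6.78%). Both calls depended on the treatment of the sets. With the 28 arrays taken as independent, limma called 26 above 0 (background 28.6%) and 25 below (background 23.3%). With a set left out and the others as a block, limma called 1 above 0 without the first set (background 0.933%), 0 without the second (0.122%) and 8 without the third (2.54%). Below 0 these fits called 0 (0.893%), 0 (0.0609%) and 3 (3.0%). Probe 1 alone gave 1 above (0.609%) and 0 below (1.01%). With a single mean for each set, limma called 0 of the 85, and 10 passed an unadjusted p of 0.05 (background 6.72%).

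The gene with the highest mean was SPAC1039.02, a protein-coding gene without a symbol near the right end of chromosome I. In the first set its log2 ratio ran from 1.13 through a median of 1.30 to 1.70. In the second set it ran from 0.37 through 0.53 to 0.76, and in the third from -0.17 through 0.01 to 0.33. The sets did not overlap in this gene, and all 20 arrays of the first and the second lay above 0. Its fitted mean was 0.66 (SE 0.135), and its mean over arrays, 0.70 (SD 0.58, n = 28), ranked 1 among all 4929 identifiers. Its probes followed each other closely (r = 0.948 over the 28 arrays). The call was lost in limma fits without the first set (mean 0.30, adjusted p = 0.0635), without the second (mean 0.71, adjusted p = 0.128) and on the set means (adjusted p = 0.709).

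The next gene along that end, SPAC1039.01, had the same order of sets at lower values. Its log2 ratio ran from 0.44 through 0.67 to 1.06 in the first set, from -0.02 through 0.16 to 0.37 in the second, and from -0.41 through -0.26 to -0.13 in the third. The first set lay wholly above 0 and the third wholly below, without overlap with the second. The genes correlated at 0.937 across the 28 arrays and at 0.451 after the set means were removed. The mean of SPAC1039.01 was 0.22 (SD 0.42) and was not called (limma adjusted p = 0.415).

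SPAC1039.06, on the same clone, split the first set. In hybridisations 1 to 6 and 19 its log2 ratio lay between 0.77 and 1.18, whereas in 7, 8 and 20 it lay between 0.01 and 0.13. It ran from -0.04 to 0.36 in the second set and from -0.19 to 0.05 in the third. This grouping within the set was drawn after the values were seen. With the set means removed, its variation still passed the probe test (adjusted p = 0.00187), and the member nearest to it in pattern was SPAC1039.01 (r = 0.870, n = 28). Its neighbour SPAC1039.07C correlated with it at 0.626 (0.549 with the set means removed). The variation of SPAC1039.07C did not pass the probe test. In the first set its probe 1 reached 0.82, whereas its probe 2 reached 0.14. On the other side, klf1, which encodes a zinc-finger transcription factor, correlated with SPAC1039.06 at 0.252 and had an SD of 0.107.

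Genes at other ends were also highest in the first set. At the left of chromosome II, ftm5 ran from 0.63 through 0.69 to 0.86 in the first set, from 0.06 through 0.33 to 0.52 in the second, and from -0.41 through -0.14 to -0.02 in the third. These ranges did not overlap, and the first set was narrow. The related gene ftm6, averaged over its probes, did not show this order, with set medians of -0.07, -0.03 and 0.05 and an SD of 0.192. Its probes differed in the first set, with means of 0.15 and -0.29, and its variation did not pass the probe test. At the left of chromosome I, SPAC977.14C had set medians of 0.74, 0.36 and 0.05, with ranges of 0.54 to 1.25, -0.13 to 0.48 and -0.32 to 0.41. The first set stood clear of the others, which overlapped. SPAC977.12 had set medians of 0.54, 0.27 and 0.00, and the third set (-0.11 to 0.03) lay below both other sets, which overlapped each other. The means of ftm5 (0.31, SD 0.38), SPAC977.14C (0.41, SD 0.38) and SPAC977.12 (0.31, SD 0.30) were not called with the sets as a block (limma adjusted p = 0.156, 0.146 and 0.172).

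A second pattern was led by hry1, which had the highest SD of the 85 genes (0.66, rank 13 of all identifiers). In the second set its log2 ratio ran from 0.64 through 1.16 to 1.80. It ran from -0.30 through -0.17 to -0.01 in the first set and from -0.26 through -0.13 to 0.01 in the third. All 10 arrays of the second set lay above all 18 others, and the other sets overlapped each other. Both probes showed it, with means of 1.10 and 1.16 in the second set (r = 0.866). Its mean over arrays of 0.31 therefore rested on the second set. In limma its fitted mean was 0.29 with all sets and -0.14 without the second (adjusted p = 0.403).

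Of the other members, SPAC1039.08 was most like hry1 (r = 0.869, n = 28, 0.354 with the set means removed). It ran from 0.14 through 0.33 to 0.46 in the second set, from -0.24 through -0.13 to 0.03 in the first and from -0.11 through 0.04 to 0.17 in the third. Its second set lay above the whole of the first and overlapped the third slightly. SPAC869.09, chosen after its values were seen, had set medians of -0.32, 0.25 and 0.00. Hybridisation 17, at -0.24, was low among the arrays of its second set, where the highest value was 0.46. That low value rested on probe 1, at -0.54, since probe 2 was nowhere below -0.11 in the second set.

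**Figure D2:**
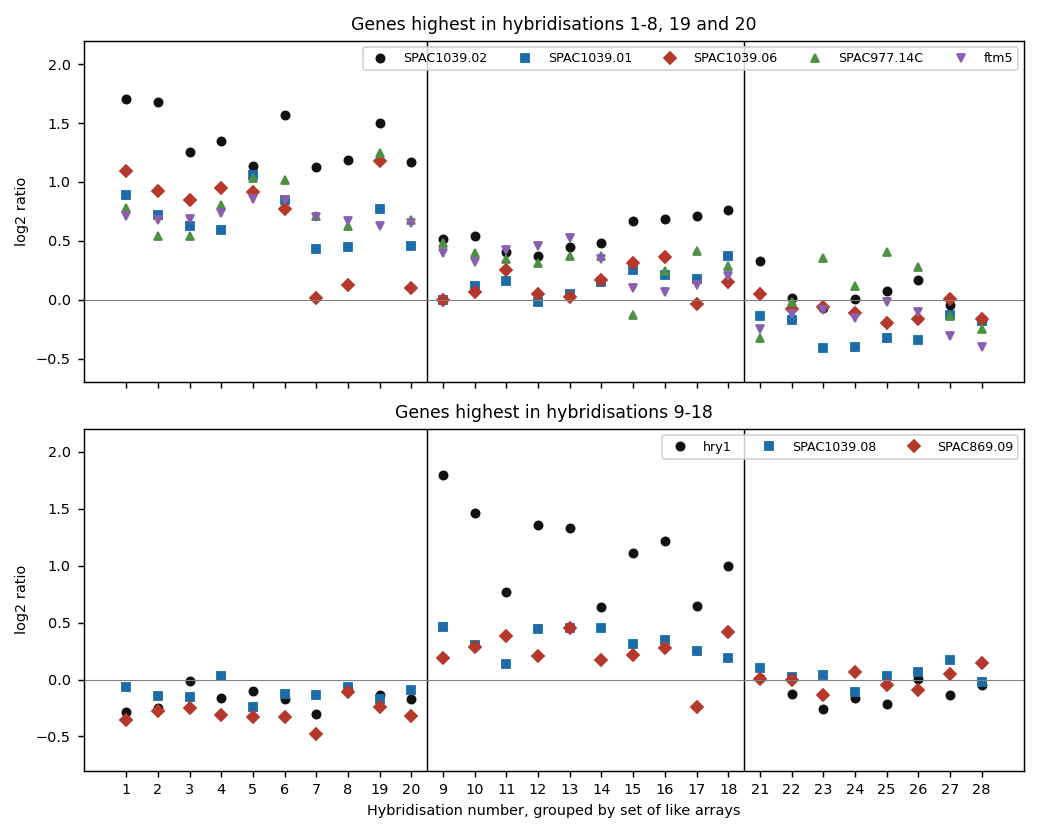
Log2 ratio (vertical axis) of 8 chromosome-end genes in each hybridisation (horizontal axis, grouped by set, with vertical lines between sets). SPAC1039.02 falls from at least 1.13 in the first set to at most 0.33 in the third, SPAC1039.06 is near 0 in hybridisations 7, 8 and 20, and hry1 is at least 0.64 in the second set alone.

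Among all genes of the array, the nearest pattern to hry1 was that of zym1, which encodes a metallothionein (r = 0.926, n = 28, 0.587 with the set means removed). The nearest to SPAC1039.02 was gst2, a glutathione S-transferase gene, at 0.940, but with the set means removed that correlation was -0.0729. The nearest to ftm5 was also gst2 (0.954, and 0.610 with set means removed). SPAC1039.06 was nearest to rit1 (0.952, and 0.875) and SPAC1039.01 to tco1 (0.939, and 0.703). These partners were picked as the highest among all genes, and the arrays share their sets, so the correlations describe likeness only.

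Counts of genes whose sets did not overlap can be read against the whole table. The first set lay wholly above the second for 8 of the 85 genes (background 5.94%) and wholly below for 4 (6.31%). It lay wholly above the third for 9 (6.86%) and wholly below for 7 (5.27%). The second lay wholly above the third for 6 (3.53%) and wholly below for 0 (4.65%). The 6 were ftm5, SPAC977.12, SPBPB10D8.01, SPAC1039.01, SPAC1039.02 and hry1. The 7 genes lowest in the first set against the third were SPAC1F8.08, mmf2, SPAC869.03C, SPAC750.08C, nrg1, SPBPB2B2.05 and gal7.

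The other called gene, SPAC750.01 at the right of chromosome I, had probes that disagreed. Averaged over its probes, its log2 ratio ran from 0.56 through 0.88 to 1.42 in the first set, from 0.25 through 0.45 to 0.64 in the second, and from -0.07 through 0.13 to 0.40 in the third. Its fitted mean was 0.51, and the first set lay above the whole of the third. Its probes correlated negatively (r = -0.502), and its variation did not pass the probe test (adjusted p = 0.908). Probe 1 had set means of 1.60, 0.46 and -0.01, whereas probe 2 had 0.19, 0.46 and 0.31. Within the third set, both probes lay between 0.14 and 0.45 in hybridisations 23 to 26. In 21, 22, 27 and 28, probe 1 lay between -0.48 and -0.09 and probe 2 between 0.09 and 0.53. Single arrays of the second set also differed, such as hybridisation 15, with 0.05 by probe 1 and 0.46 by probe 2. In limma, probe 2 alone kept the call (mean 0.32, adjusted p = 0.0238) and probe 1 alone lost it (mean 0.69, adjusted p = 0.132). The call was also lost without the second set (adjusted p = 0.185) and on the set means (adjusted p = 0.709). Probe 1 was most like SPAC1039.02 among the members (r = 0.873, n = 28). Whether either probe bound RNA of another gene was not tested.

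**Figure D3:**
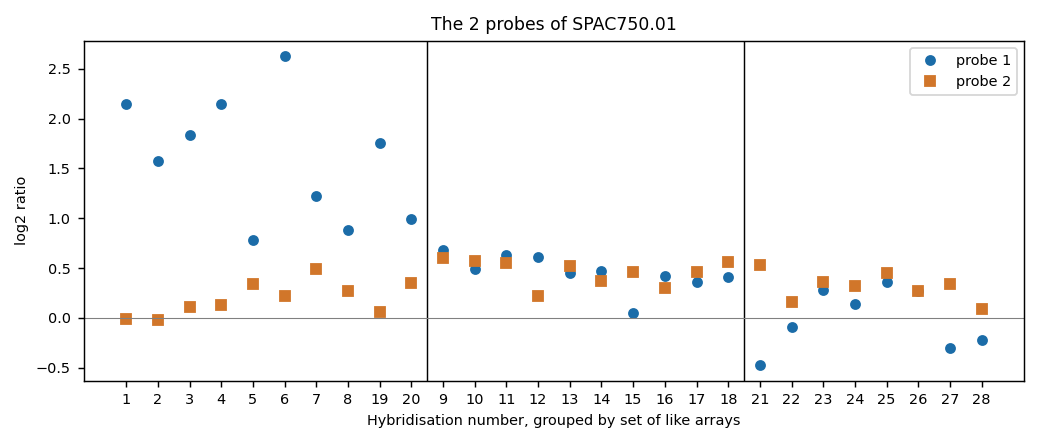
Log2 ratio (vertical axis) of each probe of SPAC750.01 in each hybridisation (horizontal axis, grouped by set). Probe 1 reaches 2.63 in the first set, where probe 2 stays at or below 0.49, and in the third set probe 2 has the higher mean.

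The pyruvate decarboxylase genes pdc101 and pdc102 encode enzymes that turn pyruvate into acetaldehyde in fermentation. For pdc101 the log2 ratio lay between 0.36 and 0.96 in hybridisations 1 to 6 and 19, and between -0.07 and 0.24 in 7, 8 and 20, the same split of the first set as in SPAC1039.06. In the third set it lay between 0.29 and 0.61 in 21, 22, 27 and 28, and between -0.26 and 0.10 in 23 to 26. For pdc102 hybridisations 23 to 26 were also the low ones of the third set, at -0.64 to -0.42, beside -0.16 to 0.26 in 21, 22, 27 and 28. The variation of both passed the probe test with the set means removed (adjusted p = 0.0285 and 0.0437). With the set means kept, pdc101 passed and pdc102 did not. In the third set the probes of pdc102 had means of -0.11 and -0.40. The mean was 0.28 for pdc101 (SD 0.32) and -0.24 for pdc102 (SD 0.22), and neither was called (limma adjusted p = 0.387 and 0.357).

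The dihydroxyacetone kinase gene dak2 was the only 1 of the 85 above 0 in all 28 arrays, where the background was 0.487%. Its log2 ratio ran from 0.04 to 0.44, with a mean of 0.20 and an SD of 0.0965, among the 3 lowest of the 85. The limma adjusted p was 0.0504. The single sign held only for the average of its probes, which correlated at -0.509, and the low SD is also that of the average. Probe 1 had a mean of 0.04 in the first set and 0.25 in the third, whereas probe 2 had 0.51 and 0.06. No member was below 0 in all 28 arrays, where the background was 0.446%.

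The galactose genes lie side by side at the right of chromosome II. The galactokinase gene gal1 ran from -0.42 through -0.22 to 0.08 in the first set, from -0.09 through 0.33 to 0.44 in the second and from -0.01 through 0.19 to 0.59 in the third. It was low in the first set, with some overlap, and its variation passed the probe test (adjusted p = 0.000196, SD 0.280). Both probes had their lowest mean in the first set, but that mean was -0.01 for probe 1 and -0.38 for probe 2. The uridylyltransferase gene gal7 had set medians of -0.24, 0.07 and 0.04 and an SD of 0.158, and the first set lay wholly below the third. The epimerase gene gal10 was flatter, with set medians of -0.06, 0.09 and 0.05, and did not pass the probe test (adjusted p = 0.263). The correlation of gal1 with its neighbour gal10 was 0.137. Next inward came tgd1, which correlated at 0.407 with gal10 and at 0.214 with gal7. Beyond it, gal7 and pan5 correlated at 0.711 (0.373 with the set means removed). The pan5 gene, whose budding yeast namesake encodes 2-dehydropantoate 2-reductase, had set medians of -0.06, 0.38 and 0.32. Farther inward on the same end, the neighbours SPBPB2B2.05, say1 and nrg1 were low in the first set, with medians of -0.30, -0.27 and -0.37, and near 0 in the third, with medians of 0.07, 0.02 and 0.02. SPBPB2B2.05 and say1 correlated at 0.672 (-0.0628 with the set means removed), and say1 and nrg1 at 0.662 (0.234). These 3 were among the 5 genes below 0 at an unadjusted p. The alpha-galactosidase gene mel1, at the right of chromosome I, had an SD of 0.153 and a range of -0.27 to 0.46. None of the means of gal1, gal7 and gal10 was called (limma adjusted p = 0.682, 0.797 and 0.914).

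At the left of chromosome I, the fluoride exporter gene fex1 had set medians of 0.30, -0.22 and -0.12. It ran from -0.02 to 0.56 in the first set and from -0.39 to -0.02 in the second, and these did not overlap. Its variation passed the probe test with and without the set means (adjusted p = 9.97e-07, and 0.00484 with them removed). The sodium/proton antiporter gene nhe1 next to it had set medians of 0.11, -0.09 and -0.02 and correlated with fex1 at 0.744 (0.587 with the set means removed). The phospholipase B gene plb4 correlated with nhe1 at 0.698 (0.688 with the set means removed), and its chromosome is uncertain as given above. Neither nhe1 nor plb4 passed the probe test. In hybridisation 19 probe 2 gave 0.92 for nhe1 and 0.86 for plb4, where probe 1 gave 0.14 and -0.26. All 3 had means near 0: -0.00253 for fex1, 0.00378 for nhe1 and -0.09 for plb4.

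Other members encode transporters of nutrients. The amino acid permease gene isp5 had set medians of -0.02, 0.24 and 0.07, and its second set (0.18 to 0.63) lay above the whole of its first (-0.25 to 0.18). The proline permease gene put4 went the other way, with set medians of -0.06, -0.28 and 0.01. The cationic amino acid transporter gene cat1 had an SD of 0.118 and set medians of 0.03, -0.10 and -0.06. The sulfate transporter gene sul2 had set medians of -0.05, -0.09 and -0.25, and the third set lay wholly below the first. The haem uptake gene shu1 had an SD of 0.101 and a range of -0.29 to 0.17. Of these 5 genes, isp5 alone passed the probe test (adjusted p = 0.0401).

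The gene nearest the left end of chromosome I was tlh1, which encodes a telomere-linked helicase of the RecQ type. It ran from -0.32 through -0.17 to -0.03 in the first set, from -0.25 through -0.04 to 0.38 in the second and from -0.23 through -0.01 to 0.33 in the third. Its first set lay wholly below 0 while the others straddled it. Its variation passed the probe test (adjusted p = 0.0146), with an SD of 0.163, close to the median of all identifiers. The next member inward, SPAC212.08C, followed it (r = 0.720, n = 28, 0.612 with the set means removed).

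The spore coat protein gene isp3 had set medians of -0.23, -0.32 and 0.00 and a mean of -0.18 (SD 0.18, limma adjusted p = 0.302). The flavohaemoglobin gene yhb1, whose product detoxifies nitric oxide, reached 0.71 in hybridisation 5 and had a mean of 0.18 (SD 0.18). In the first set its probe 1 reached 0.43 and its probe 2 reached 1.01. Its neighbour SPAC869.03C ran opposite to it (r = -0.615, and -0.497 with the set means removed). The protein-L-isoaspartate methyltransferase gene pcm2 had set medians of -0.24, -0.20 and 0.06. Probe 1 of pcm2 had means of -0.31 in the first set and 0.13 in the third, whereas probe 2 had -0.13 and 0.01. The variation of isp3, yhb1 and pcm2 did not pass the probe test. The gene ade5, whose product acts in purine synthesis, had a mean of 0.17 (SD 0.13), was between 0.12 and 0.33 in the third set, and passed the probe test (adjusted p = 0.00341). Averaged over probes, the flattest members were SPAC977.17 (SD 0.0813) and SPAC977.13C (SD 0.0939), both on the clone that also holds SPAC977.14C, and dak2. Of these, SPAC977.17 alone passed the probe test. The low SD of dak2 belongs to the average, since its probes ran opposite ways. From the first set to the third, the mean of probe 1 rose from 0.04 to 0.25 and that of probe 2 fell from 0.51 to 0.06. In the second set, probe 2 of SPAC977.13C ran from -0.38 to 0.47.

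SPBPB10D8.03 at the left of chromosome II had an SD of 0.30 that its probes did not share. Its log2 ratio lay between -0.92 and -0.69 in hybridisations 21, 22, 27 and 28, and between 0.08 and 0.25 in 23 to 26. Its probes correlated at -0.0486, and in the third set probe 1 ranged from -1.85 to 0.52 while probe 2 ranged from -0.05 to 0.20. The neighbouring genes SPBPB10D8.01 and SPBPB10D8.02C correlated at 0.699, but at -0.00221 with the set means removed. The variation of SPBPB10D8.02C did not pass the probe test. Its probes had means of 0.08 and 0.43 in the first set and of -0.03 and -0.25 in the third. SPBPB10D8.01 had set medians of 0.29, 0.24 and -0.26, with the third set below both others.

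**Figure D4:**
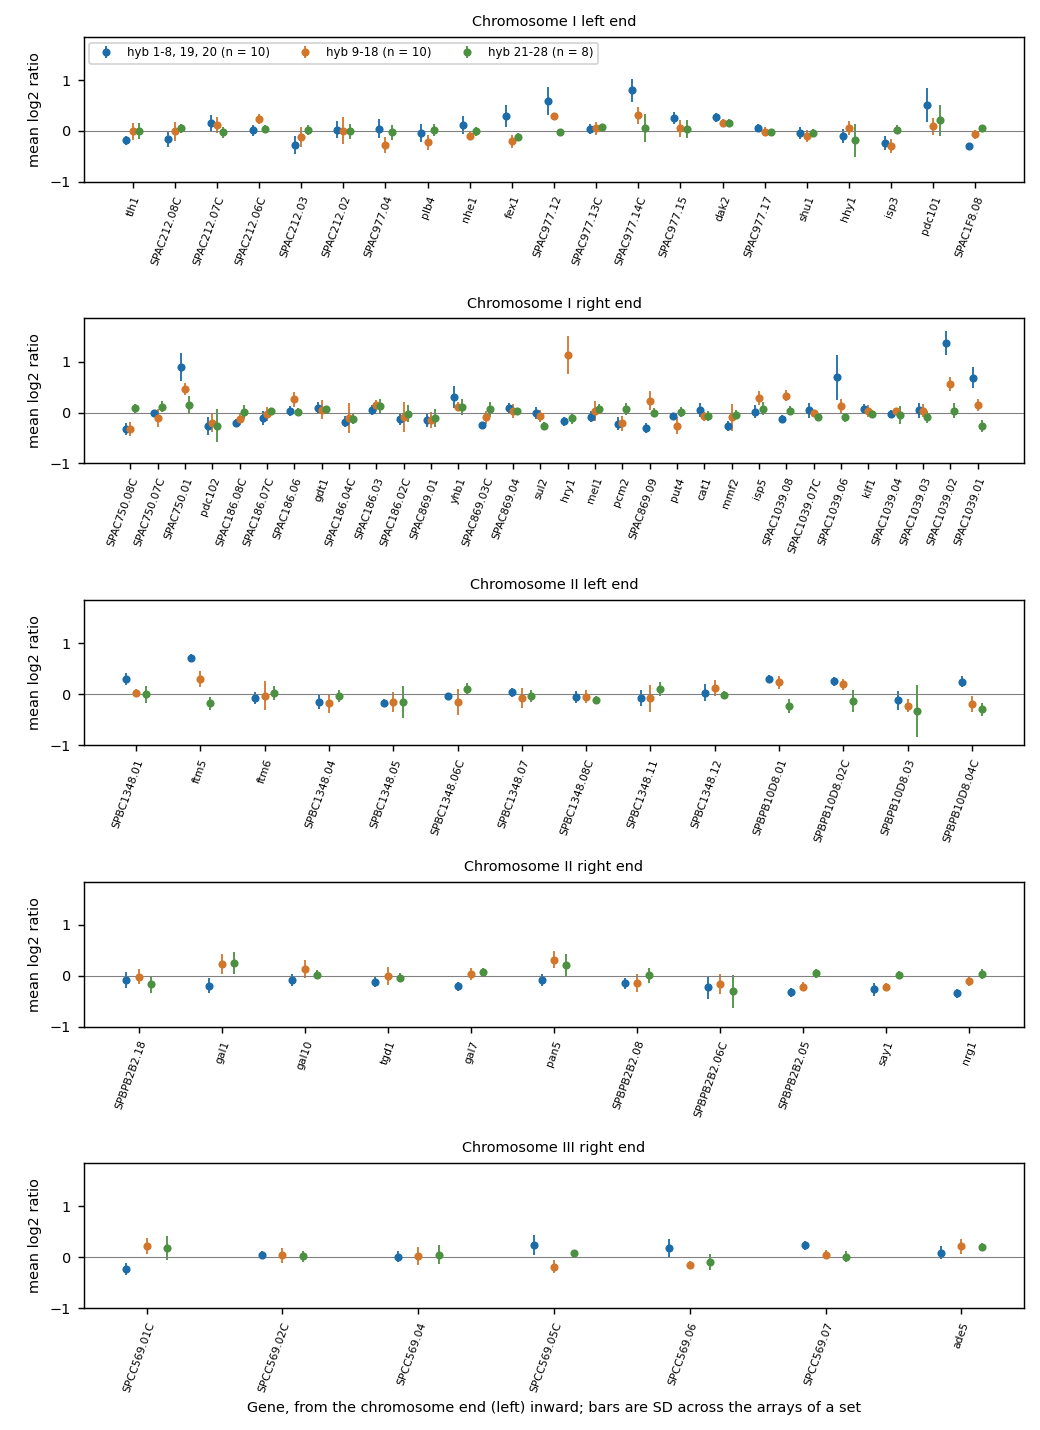
Mean log2 ratio in each set (vertical axis, bars are SD across the arrays of the set, n = 10, 10 and 8) for each gene, in order from the chromosome end (left) inward. High first-set means occur at the left and right of chromosome I and the left of chromosome II, between genes whose set means stay near 0.

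Median SDs by chromosome end were 0.181 at the left and 0.164 at the right of chromosome I, 0.198 at the left and 0.162 at the right of chromosome II, and 0.155 at the right of chromosome III. At the right of chromosome II, 0 of 11 genes had their highest mean in the first set, beside 34 of all 85 chromosome-end genes and 43.1% of all identifiers. There 5 were highest in the second set and 6 in the third.

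Correlations between neighbours on an end were weak and mostly above 0. Over 80 neighbouring pairs the median correlation across the 28 arrays was 0.198, and 57 (71.3%) were above 0, beside 53.3% of neighbouring pairs elsewhere and 50.6% of all pairs. The median was 0.0583 between genes at different ends, 0.0348 between neighbouring measured genes elsewhere in the genome (4703 pairs) and 0.00691 between all genes. With the set means removed the neighbour median was 0.107, beside 0.0736 between genes at different ends and 0.0264 for neighbours elsewhere. All pairs share the same 28 arrays and their sets, and no test was made.

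**Figure D5:**
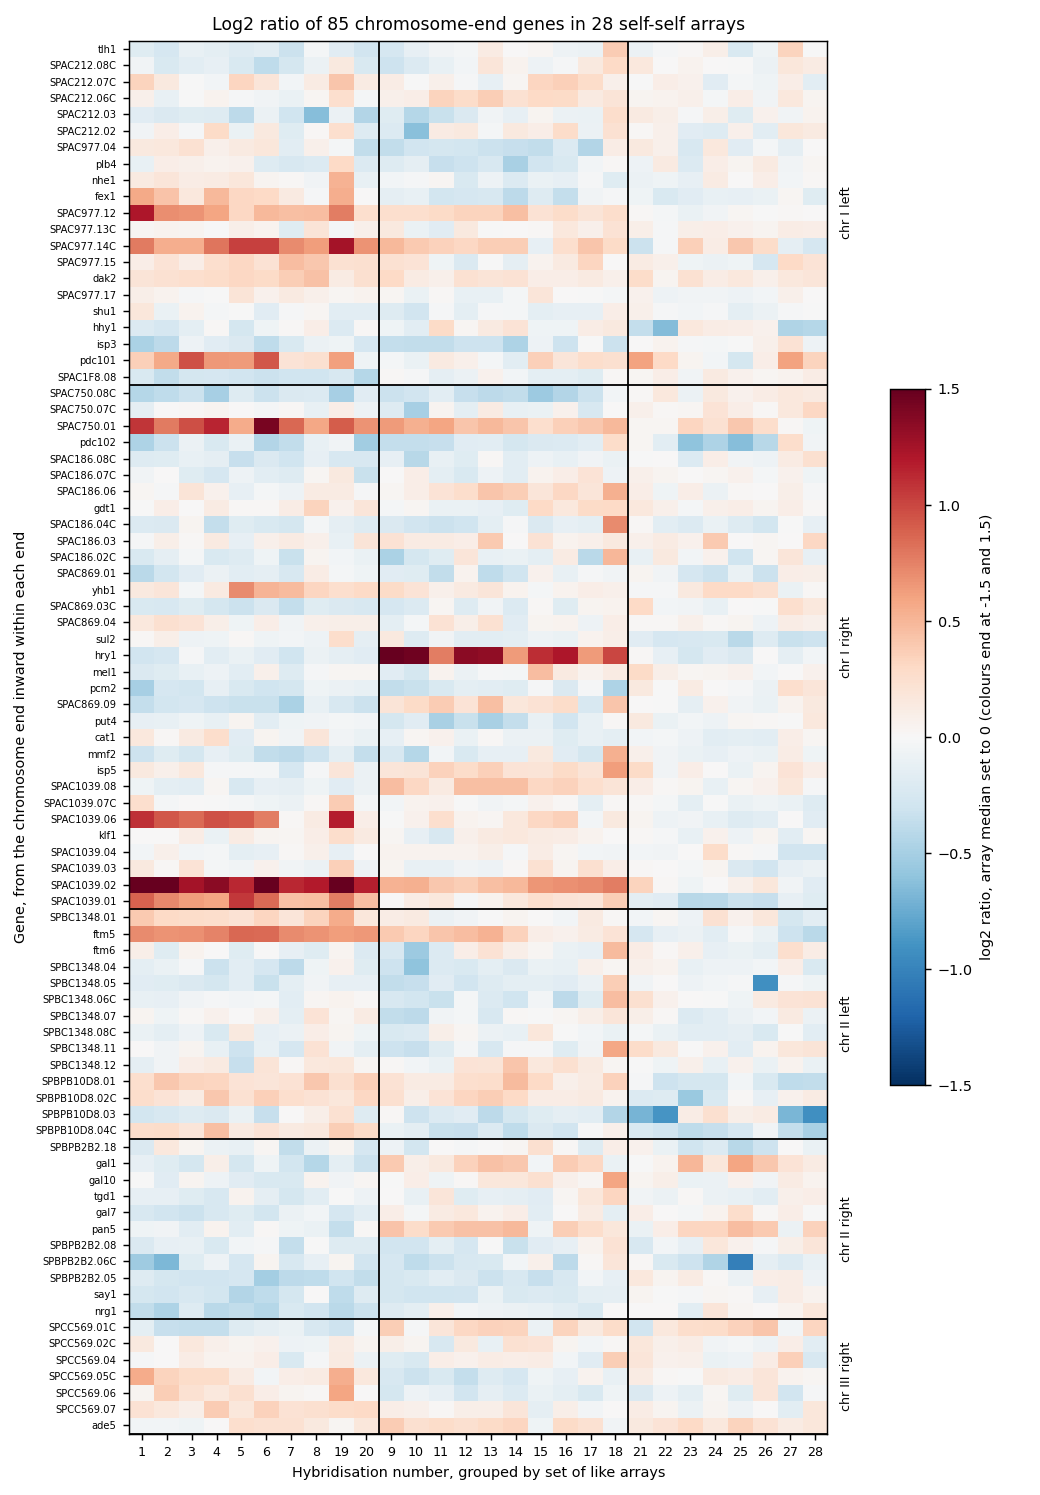
Log2 ratio (colour, ending at -1.5 and 1.5) of the 85 chromosome-end genes (rows, from each end inward) in 28 hybridisations (columns, grouped by set). The rows of SPAC1039.02, SPAC1039.01, SPAC750.01, SPAC977.14C and ftm5 are dark red in the first set, hry1 in the second, and hybridisation 18 shows red cells across many otherwise pale rows.

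Hybridisation 18, in the second set, stood apart for these genes. It held the highest of the 28 values for 19 of the 85 genes (22.4%), beside 6.8% of all identifiers. It held the lowest for 0, beside 6.9% of all identifiers. For SPAC186.04C it gave 0.71, where every other array was at or below 0.04. For gal10 it gave 0.59, with the next array at 0.24, and for isp5 0.63, with the next at 0.36. For mmf2, related to the mitochondrial protein Mmf1, it gave 0.53, with the next at 0.14. The probes did not always share these values. Probes 1 and 2 gave 0.64 and 0.78 for SPAC186.04C and 0.67 and 0.59 for isp5 in hybridisation 18. For gal10 they gave 0.10 and 1.08, and for mmf2 0.21 and 0.85. Others of the 19 also rested on a single probe, such as ftm6, at -0.07 and 1.02. Without this array the SD fell from 0.195 to 0.104 for SPAC186.04C and from 0.161 to 0.119 for gal10. Neighbouring genes then had a median correlation of 0.156. Hybridisation 10 held the lowest value for 10 genes (11.8%), beside 2.07% of all identifiers, and hybridisation 7 for 8 (9.41%), beside 1.28%. These arrays were picked after their values were seen.

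The spread over the 85 genes within an array, divided by that over all identifiers, was highest in the first set, at 1.08 to 1.60. The upper value was reached in hybridisations 7 and 20. It was 0.90 to 1.37 in the second set and 0.94 to 1.08 in the third. With the interquartile range in place of the SD, the ratio ran from 0.89 to 1.42, 0.91 to 1.46 and 0.76 to 1.04 in the same order, so by this measure the first set was no longer the highest.

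Genes that act on chromosome ends were compared by their own values. Of 34 factors of heterochromatin and telomere protection, such as swi6, clr4 and taz1, 33 were measured. Their median SD was 0.153, and 0 had a called mean in either direction with the sets as a block (background 0.69% above and 0.812% below). With arrays as independent, 6 (18.2%) were above and 7 (21.2%) below, beside 28.6% and 23.3% of all identifiers. Their variation passed the probe test for 12 (36.4%, background 53.2%), among them swi6, taz1, rap1, rif1 and sir2. Of 109 mug and meu genes, named for meiotic expression, the median SD was 0.157, with 0 called above and 1 below 0. With arrays as independent, 10 (9.17%) were called above and 53 (48.6%) below, beside 28.6% and 23.3% of all identifiers. The probe test was passed by 27 (24.8%), beside 53.2%. The 6 pfl genes, which encode cell-surface proteins, had a median SD of 0.136, and pfl3 was called below 0. None of these lists was tested as a list.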

How the data were processed

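The authors deposited log2 ratios, which are medians per the labels, from slides read with GenePix Pro 4.0. The labels state that dim features were removed, yet the table has a value everywhere. The table held 9858 probes, 2 for each of 4929 identifiers, in 28 arrays, with 0 missing values. Spot intensities were not used here, so signal over background is unknown and the number of arrays limits precision. The labels do not say which arrays share a culture. Each array was centred on its probe median (as deposited, -0.29 to 0.01) and probes were averaged. Platform annotation named 4816 identifiers with a single gene, of which 4791 were in RefSeq, and 44 probes with several genes were not named.

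Array sets came from average linkage on 1 minus Pearson r, cut at 3. Means were tested with limma 3.58.1 in R 4.3.3 (robust prior, two-sided, sets as random block by duplicateCorrelation, consensus correlation 0.48, Benjamini-Hochberg adjustment, threshold 0.05). The probe test was the F ratio of the mean square between arrays to the array-by-probe residual (27 degrees of freedom each). Scripts were tested on simulated data, with set effects that were absent or smaller than in these arrays. That test gives no error rate for the calls here. Named genes were the 8 of highest SD passing the probe test, the 8 of largest mean, the 3 of lowest SD, those of a single sign, tlh1 and the galactose genes, and the nearest member of the 5 most variable. Other genes were named for their role or after their values were seen. The members, lists and tests were chosen with earlier results of these data known. No sequences were used here.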

Additional observations from a re-analysis of the deposited data

How the results depend on the processing

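The count of chromosome-end genes called above 0 was 2, and it was 1 with probe 1 alone, 1 without the first set, 0 without the second set, 8 without the third set, 26 with the arrays as independent and 0 on the set means. The count stayed at 2 or 3 with no centring, scaling, probe 2 alone, an ordinary prior, a minimum mean of 0.3 and without hybridisations 25 to 28. The share of all identifiers called was not computed for these last settings. The count called below 0 was 0 (background 0.812%), and it was 3 without the third set (background 3.0%) and 25 with the arrays as independent (23.3%). The 35 genes passing the probe test became 17 with the sets removed, 22 without the first set and 23 without the second, where the background also fell from 53.2% to 23.4%, 38.9% and 32.9%. The median SD of the 85 genes stayed between 0.141 and 0.219. Of the alternatives for the means of the 8 variable or high genes, 72 kept direction and call, 9 gained a call and 6 lost it. The fitted mean of hry1 reversed from 0.29 to -0.14 without the second set. Leaving out a set leaves fewer arrays, and the cause of these changes was otherwise not tested.

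No paired analysis was possible because the arrays form a single group. The alternative without near-identical gene copies was not run, since protein sequences were not used here. Adding the comparison without hybridisation 18, the interquartile range and the splits within sets came after the values were seen. The block fit rests on 3 sets, and limma on the set means left 0 calls of 85. The distance of a spot from background is unknown, and ratios near 0 do not show that a gene was silent or expressed.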
